A study of Danio rerio with 10 samples.

Results

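The Hox genes of paralog groups 1 to 3 are the homeobox genes that lie at the 3' end of the Hox clusters. The deposited table of 32520 zebrafish genes holds 9 of them under the symbols *hoxa1a*, *hoxb1a*, *hoxb1b*, *hoxc1a*, *hoxa2b*, *hoxb2a*, *hoxb3a*, *hoxc3a* and *hoxd3a*. They were chosen by paralog group number, with earlier *prdm1a-/-* and WT values of these libraries in view, and are compared here within replicate number as well as across all libraries. Each symbol stands for 1 Ensembl gene, and all 9 genes passed edgeR's filter on low counts, as did 20007 genes in all. The expression difference between genotypes was part of how the 9 genes were chosen, so it is given as a description and nothing is concluded from how many of them share a direction. The difference between replicate numbers was not used in choosing them and was tested.

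At 48 hpf, EGFP-positive cells were sorted for RNA-seq from 2 pools of *prdm1a-/-* embryos, which carry *Tg(Mmu:Prx1-EGFP)* and are homozygous for the m805 allele of *prdm1a*, and from 2 pools of WT embryos (strain AB) with the same transgene. Prdm1a is a zinc finger transcription factor, and m805 places a premature stop codon in its SET domain. The study detected *prdm1a* transcripts in mutant fin buds at 48 hpf, and proposes that the mutant mRNA escapes decay at this stage. The EGFP transgene is driven by a mouse *Prx1* enhancer that is active in the pectoral fin but also in the pharyngeal arches and the dorsal head, and mutants were recognised by their pigment. The study cut away the head with the arches before sorting, and states that some arch and dorsal head tissue could have remained. The study counted heterozygotes as WT when it measured fins. Whether the WT pools of these libraries also held heterozygotes, which come from the same crosses, is not stated. Neither the labels nor the methods say whether a replicate number marks a shared day or sort. With 2 pools in each genotype, a p-value of the fit with genotype alone is set against the spread between these pools. With the replicate number also in the fit, that spread is partly removed. The p-value then rests on how far the genotype difference disagrees between the 2 numbers. In both kinds of fit the spread of a gene is estimated partly from all genes.

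Hox proteins bind DNA through their homeodomain, often together with Pbx and Meis cofactors, and give cells their position along the head-to-tail axis. Genes nearest the 3' end of a cluster are switched on first and furthest forward, and retinoic acid is a known activator of them. In the zebrafish head, *hoxb1a* marks rhombomere identity in the hindbrain, *hoxb1b* acts early in the same region, and *hoxa2b* and *hoxb2a* together set the identity of the second pharyngeal arch. Group 3 genes are expressed in the posterior hindbrain and the arches behind it.

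The libraries held 20303621 and 26798799 counts in *prdm1a-/-* replicates 1 and 2 and 22865061 and 22008119 counts in WT replicates 1 and 2. *prdm1a* itself had 2505 and 7847 counts in *prdm1a-/-* replicates 1 and 2, against 1147 and 5222 counts in WT replicates 1 and 2. Its presence does not check the genotype labels, because the study saw more of the transcript in mutant than in WT fin buds. All 8 fin mesenchyme markers were detected. *tbx5a*, which is required for the fin bud to form, had 66.3 and 50.2 CPM (counts scaled to library size with TMM factors) in *prdm1a-/-* libraries and 59.96 and 76.8 CPM in WT libraries. Transcripts of other cell types were present too, with *krt4*, an epidermal keratin, at 6017 to 8912 CPM in *prdm1a-/-* and 7019 to 7765 CPM in WT libraries, and *mylpfa*, a muscle myosin light chain, at 311 to 1014 CPM in *prdm1a-/-* and 255 to 1184 CPM in WT libraries. Midbrain markers, *otx2b* among them, summed to 8.90 to 12.0 CPM in *prdm1a-/-* and 11.1 to 11.5 CPM in WT libraries. Because the samples are bulk RNA, fewer cells of a type and less RNA per cell cannot be told apart in any difference below.

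Together the 9 genes took up 0.0256% and 0.0224% of all counts in *prdm1a-/-* replicates 1 and 2, against 0.0374% and 0.0362% in WT replicates 1 and 2. Their summed level was 255 and 231 CPM in *prdm1a-/-* libraries and 373 and 355 CPM in WT libraries. The *prdm1a-/-* library therefore stood at 68.2% of WT in replicate 1 and at 65.2% of WT in replicate 2. *hoxb3a* supplied 37.03% and 28.8% of these counts in *prdm1a-/-* libraries and 44.5% and 29.9% in WT libraries. Without *hoxb3a* the summed level was 77.5% of WT in replicate 1 and 66.2% in replicate 2. Gene lengths were not part of the table, so levels are not compared between genes.

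**Figure D1:**
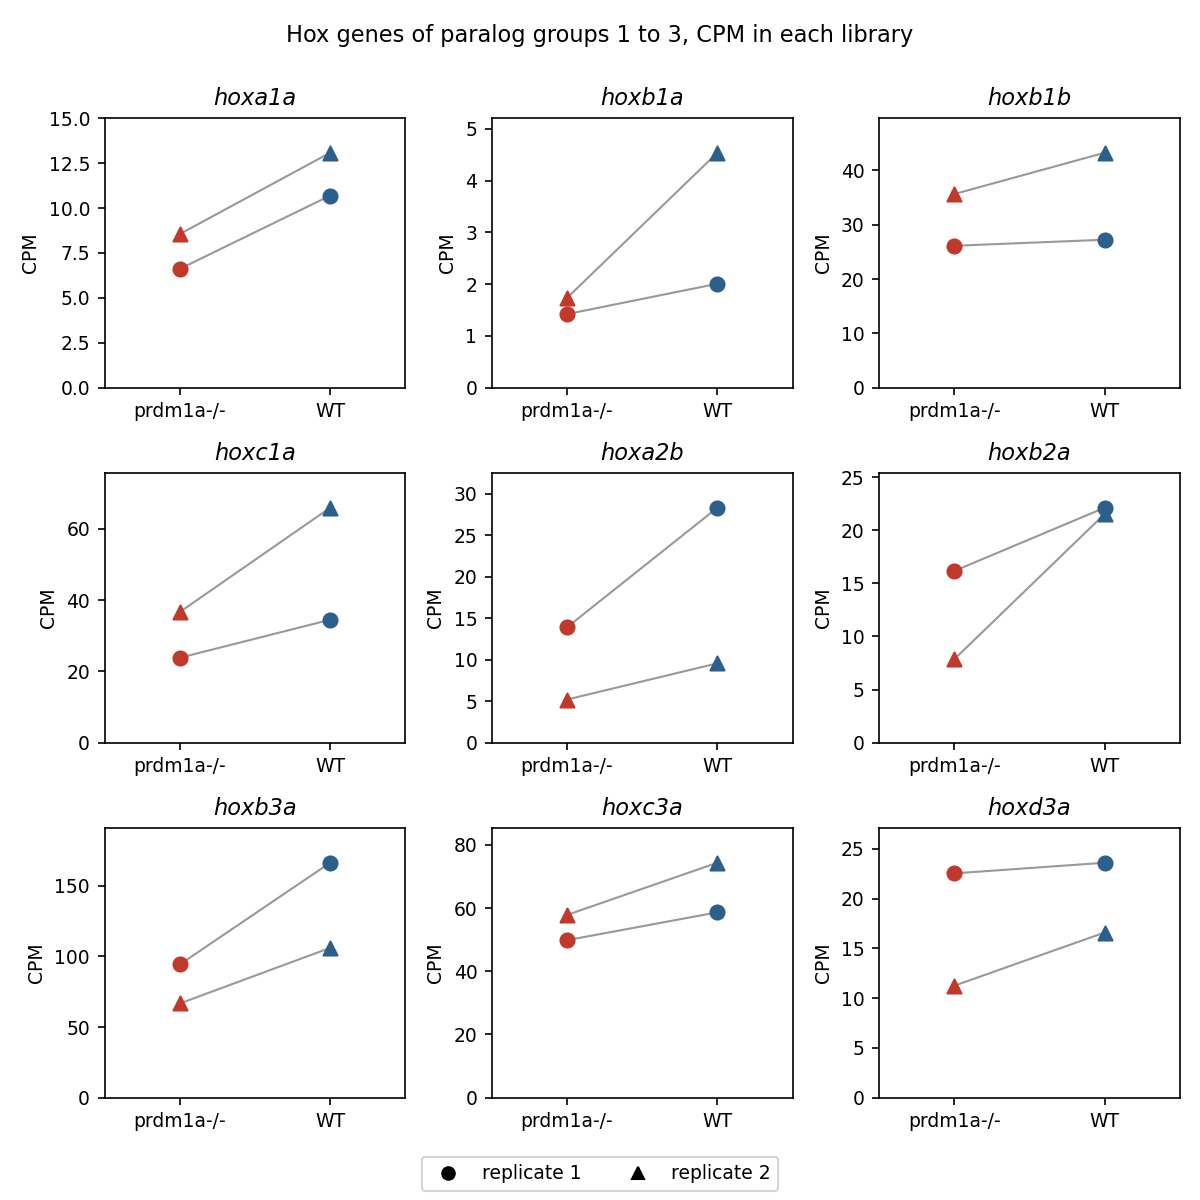
CPM (TMM-scaled counts, vertical axis starting at 0 in each panel) of the 9 Hox genes in the *prdm1a-/-* libraries on the left and the WT libraries on the right. Circles are replicate 1, triangles are replicate 2, and grey lines join libraries of the same number. Every line runs upward to WT, while the height of circles and triangles changes from gene to gene.

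Each of the 9 genes had less CPM in *prdm1a-/-* than in WT when libraries of the same number were compared. Among the 20007 genes tested, 29.7% showed this pattern, and since the contrast was in view when the genes were chosen, nothing is read from the count. Their median log2 fold change (*prdm1a-/-* over WT) was -0.73 with genotype as the only term and -0.69 with the replicate number as a block, against 0.00 and 0.01 over all genes tested. For 5 of the 9 genes the higher *prdm1a-/-* library was still below the lower WT library, and the genotypes overlapped for the other 4. Of all genes tested, 13.5% had both *prdm1a-/-* libraries below both WT libraries.

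The group 1 genes held both the gene with the fewest counts and the gene with the smallest log2 difference. *hoxb1a* (ENSDARG00000008174), known from the hindbrain, was the least counted, with 29 and 45 counts in *prdm1a-/-* replicates 1 and 2 and 46 and 102 counts in WT replicates 1 and 2. Its level was 1.58 ± 0.221 CPM (SD, n = 2) in *prdm1a-/-* and 3.27 ± 1.79 CPM in WT libraries. Most of its difference came from the high WT replicate 2. *hoxb1b* (ENSDARG00000054033) had 533 and 925 counts in *prdm1a-/-* replicates 1 and 2 and 624 and 972 counts in WT replicates 1 and 2, or 30.9 ± 6.73 CPM against 35.2 ± 11.3 CPM (n = 2 each). On the log2 scale it had the smallest fitted difference of the 9 genes, and its genotypes overlapped.

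*hoxc1a* (ENSDARG00000070337), the group 1 gene of the hoxca cluster, had 486 and 951 counts in *prdm1a-/-* replicates 1 and 2, against 790 and 1481 counts in WT replicates 1 and 2. The levels were 30.2 ± 9.07 CPM in *prdm1a-/-* and 50.2 ± 22.2 CPM in WT libraries (n = 2 each). *prdm1a-/-* replicate 2, at 36.6 CPM, lay just above WT replicate 1, at 34.5 CPM, so the genotypes overlapped although each *prdm1a-/-* library was below its WT counterpart. *hoxa1a* (ENSDARG00000104307) had 135 and 222 counts in *prdm1a-/-* replicates 1 and 2 and 245 and 294 counts in WT replicates 1 and 2. At 7.58 ± 1.37 CPM in *prdm1a-/-* and 11.9 ± 1.69 CPM in WT libraries, its genotypes did not overlap, and its ratio was nearly the same in both replicate numbers.

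The group 2 genes of second arch identity stood at similar fractions of WT but with different patterns. *hoxa2b* (ENSDARG00000023031) had 284 and 135 counts in *prdm1a-/-* replicates 1 and 2 and 649 and 215 counts in WT replicates 1 and 2. Its CPM were 13.9 and 5.20 in *prdm1a-/-* and 28.3 and 9.57 in WT libraries, so that both replicate 1 libraries exceeded both replicate 2 libraries and the genotypes overlapped. *hoxb2a* (ENSDARG00000000175) had 330 and 204 counts in *prdm1a-/-* replicates 1 and 2 and 507 and 484 counts in WT replicates 1 and 2. The WT level of *hoxb2a* hardly differed between pools (21.8 ± 0.418 CPM, n = 2), while the *prdm1a-/-* level was 16.2 CPM in replicate 1 and 7.86 CPM in replicate 2. With the replicate number as a block, *hoxa2b* stood at 51.6% of WT (log2 fold change -0.96, SE 0.214) and *hoxb2a* at 51.9% (-0.95, SE 0.256). Without the block the log2 fold changes were -0.99 (SE 0.753) for *hoxa2b* and -0.86 (SE 0.426) for *hoxb2a*.

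Among the group 3 genes, *hoxb3a* (ENSDARG00000029263) had 1925 and 1731 counts in *prdm1a-/-* replicates 1 and 2 and 3812 and 2384 counts in WT replicates 1 and 2. Its level was 80.5 ± 19.5 CPM in *prdm1a-/-* and 136 ± 42.6 CPM in WT libraries (n = 2 each), with no overlap between genotypes. *hoxc3a* (ENSDARG00000070339) had 1017 and 1501 counts in *prdm1a-/-* replicates 1 and 2 and 1344 and 1671 counts in WT replicates 1 and 2, or 53.8 ± 5.65 CPM against 66.5 ± 11.1 CPM. Its genotypes did not overlap either, but *prdm1a-/-* replicate 2 (57.8 CPM) and WT replicate 1 (58.6 CPM) nearly coincided. *hoxd3a* (ENSDARG00000059280) had 460 and 292 counts in *prdm1a-/-* replicates 1 and 2 and 541 and 373 counts in WT replicates 1 and 2, or 16.9 ± 7.98 CPM against 20.1 ± 4.96 CPM, and its genotypes overlapped.

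Within a replicate number, the precision of a ratio is limited by counting, and a 95% exact binomial (Clopper-Pearson) interval was computed for each, which covers counting error only. The ratios were in view when the genes were chosen, and no such intervals were computed over all genes. Nothing is therefore read from how many intervals exclude 0 or overlap. In replicate 2 the interval lay below 0 for all 9 genes. In replicate 1 it lay below 0 for 6 genes and held 0 for *hoxb1a* (-1.22 to 0.20), *hoxb1b* (-0.23 to 0.11) and *hoxd3a* (-0.25 to 0.12). The *hoxb1a* interval was wide, resting on 29 counts in *prdm1a-/-* and 46 in WT. Those of *hoxb1b* and *hoxd3a* were narrow, and their *prdm1a-/-* libraries stood at 95.9% and 95.5% of WT. In replicate 1 the log2 ratio differed most from 0 for *hoxa2b* (-1.03), followed by *hoxb3a* (-0.82) and *hoxa1a* (-0.69). In replicate 2 it differed most for *hoxb2a* (-1.45), followed by *hoxb1a* (-1.39), *hoxa2b* (-0.88) and *hoxc1a* (-0.85).

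The 2 counting intervals of a gene did not overlap for 3 of the 9 genes. For *hoxb2a* the log2 ratio was -0.45 (-0.66 to -0.25) in replicate 1 and -1.45 (-1.70 to -1.22) in replicate 2. For *hoxd3a* it was -0.07 in replicate 1 and -0.56 (-0.79 to -0.34) in replicate 2, and for *hoxc1a* -0.53 (-0.70 to -0.37) and -0.85 (-0.97 to -0.73). In each of these the larger difference was in replicate 2. The other 6 genes had overlapping intervals. Each genotype has 1 library per number, so whether the genotype difference depends on the number could not be tested beyond counting error.

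**Figure D2:**
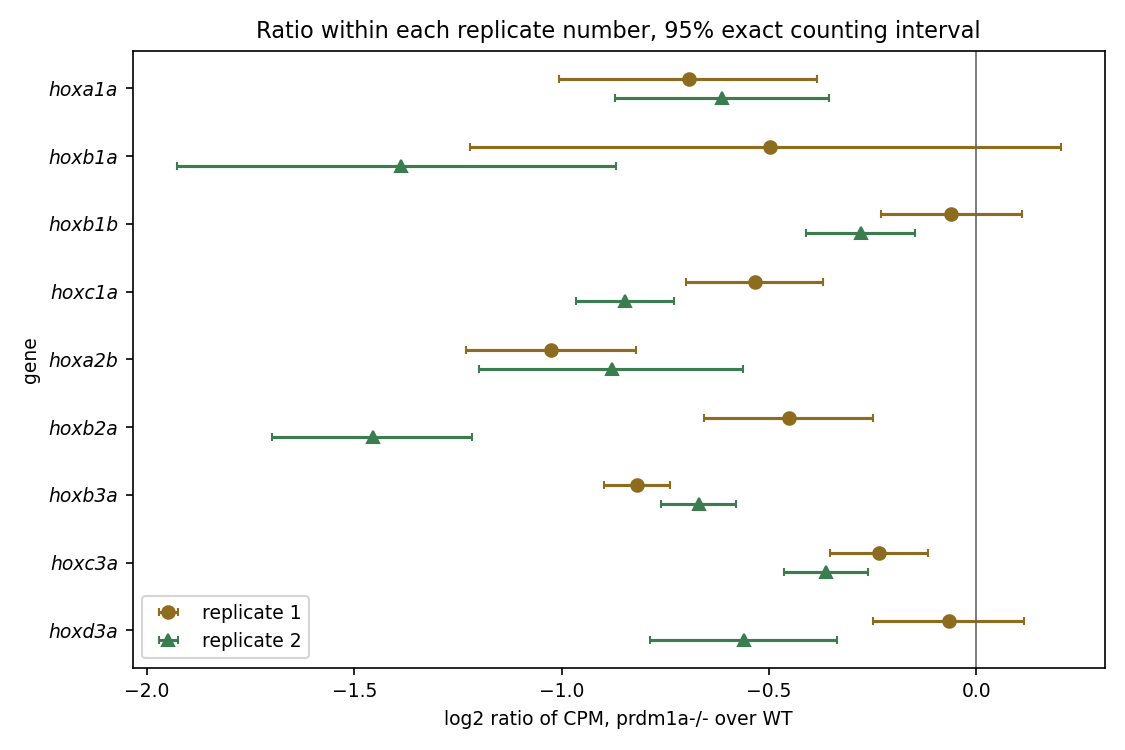
Log2 ratio of CPM, *prdm1a-/-* over WT (horizontal axis), for each of the 9 Hox genes (rows), with circles for replicate 1 and triangles for replicate 2. Bars are 95% exact binomial intervals of counting error. All 18 points lie left of 0, the intervals of *hoxb1a*, *hoxb1b* and *hoxd3a* in replicate 1 cross it, and the intervals of *hoxb2a*, *hoxc1a* and *hoxd3a* do not overlap between replicates.

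With genotype as the only term and p-values adjusted over all genes, edgeR called 0 of the 9 genes, and 0 of the 20007 genes tested (0%). At an unadjusted p under 0.05 it held 0 of the 9 and 376 of all genes, and DESeq2 with genotype alone called 0 of the 9 and 50 of all. With the replicate number as a block, edgeR called 1 of the 9, *hoxb3a* (log2 fold change -0.74, SE 0.133), against 0.62% of all genes that were called lower in *prdm1a-/-*. With the same block DESeq2 called *hoxb3a*, limma-voom called *hoxb3a*, *hoxc1a* and *hoxa2b*, and edgeR with RLE size factors called none. These calls describe the contrast that was in view when the genes were chosen and give it no independent support. The log2 fold change with the block was -0.65 (SE 0.244) for *hoxa1a*, -0.96 (SE 0.505) for *hoxb1a*, -0.17 (SE 0.162) for *hoxb1b*, -0.69 (SE 0.159) for *hoxc1a*, -0.30 (SE 0.140) for *hoxc3a* and -0.31 (SE 0.205) for *hoxd3a*. Without the block the SEs were larger, and the log2 fold change was -0.65 (SE 0.318) for *hoxa1a*, -1.05 (SE 0.598) for *hoxb1a*, -0.19 (SE 0.345) for *hoxb1b*, -0.73 (SE 0.434) for *hoxc1a*, -0.76 (SE 0.345) for *hoxb3a*, -0.30 (SE 0.244) for *hoxc3a* and -0.25 (SE 0.445) for *hoxd3a*.

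The other 39 Hox genes of the table were set beside these values by paralog group. Of the 8 genes of groups 4 and 5, all were lower in the *prdm1a-/-* library of both numbers, as were 29.7% of all genes tested. Their median log2 fold change was -1.13 under the block. The block fit called 6 lower, from -1.60 for *hoxc4a* to -0.95 for *hoxb5b*, as it did 0.62% of all genes tested. Of the 8 genes of groups 6 to 8, 1 was lower in both numbers, the median was 0.06 and 0 were called. Of the 23 genes of groups 9 to 13, which pattern the distal fin and the posterior body, 6 were lower and 7 higher in both numbers, the median was 0.10 and 0 were called. Without the block, edgeR called 0 of all genes tested and so 0 in each of these groups. The medians without it were -1.14 for groups 4 and 5, 0.10 for groups 6 to 8 and -0.02 for groups 9 to 13, the last with the opposite sign. No test of the difference between paralog groups was made. Earlier values of this contrast were in view, so nothing is read from these counts.

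**Figure D3:**
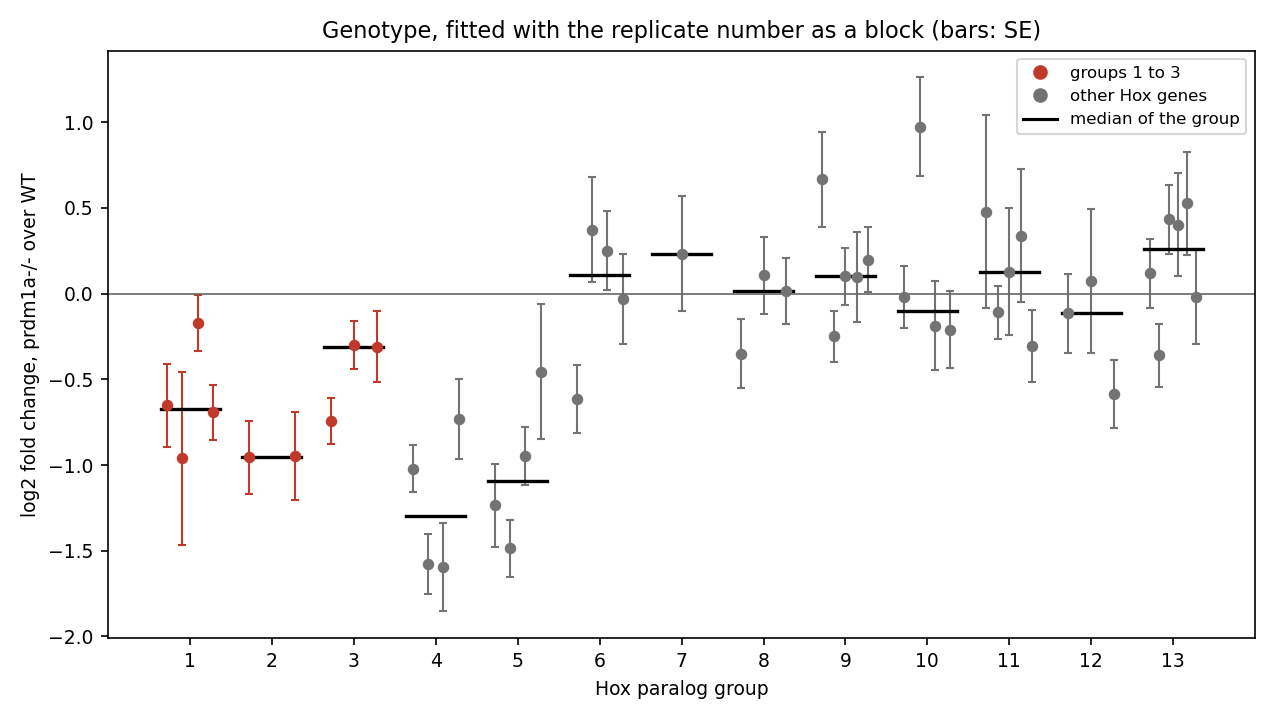
Log2 fold change of *prdm1a-/-* over WT (vertical axis, fitted by edgeR with the replicate number as a block) of the 48 Hox genes by paralog group (horizontal axis), with bars of 1 SE and a black line at the median of each group. Red points are the genes of groups 1 to 3, which lie between -0.96 and -0.17, and grey points are other Hox genes, which are lowest in groups 4 and 5 and lie on both sides of 0, between -0.61 and 0.97, from group 6 onward.

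Several of these genes share sequence in the genome. By the RefSeq annotation of the GRCz12tu assembly, which is not the danRer11 build of the counts and is used only for gene order, *hoxb1a* and *hoxb2a* are neighbours. The gene span of *hoxb3a* overlaps those of *hoxb4a*, *hoxb5a* and *hoxb6a*, that of *hoxc3a* overlaps *hoxc4a*, *hoxc5a*, *hoxc6a*, *hoxc8a* and *hoxc9a*, that of *hoxb1b* overlaps *hoxb5b* and *hoxb6b*, that of *hoxd3a* overlaps *hoxd4a*, and that of *hoxa1a* overlaps *evx1*. How reads in such shared stretches were counted, and whether strand was used, was not stated, so the counts of these 5 genes are uncertain to that extent. Whether they share reads with the overlapping genes was not tested. *hoxa2b* lies on the same chromosome as *prdm1a*, with 170 tested genes between them, and the other 8 genes lie on other chromosomes. The fitted log2 fold changes of the other genes of the *hoxa2b* cluster were -0.25 for *hoxa9b*, -0.02 for *hoxa10b*, -0.11 for *hoxa11b* and -0.36 for *hoxa13b*, against -0.96 for *hoxa2b*.

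Between replicate numbers, which played no part in choosing the genes, the 9 Hox genes split. The test set replicates 2 over replicates 1 with genotype in the model. Of the 9 genes, 5 passed at an adjusted p under 0.05, against 24.7% of all genes tested. Higher in replicates 2 were the group 1 genes *hoxc1a* and *hoxb1b*, a direction in which 14.1% of all genes were called. Lower in replicates 2 were *hoxa2b*, *hoxb3a* and *hoxd3a*, a direction in which 10.6% of all genes were called.

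*hoxa2b* differed most, with 5.20 CPM in the *prdm1a-/-* and 9.57 CPM in the WT library of number 2, against 13.9 and 28.3 CPM in those of number 1. It was 2.82-fold lower in replicates 2 (log2 fold change -1.49, SE 0.216, with an edgeR adjusted p of 0.000621). *hoxc1a* was 1.72-fold higher in replicates 2 (log2 fold change 0.78, SE 0.159, with an edgeR adjusted p of 0.00524), at 36.6 and 65.9 CPM against 23.8 and 34.5 CPM in the *prdm1a-/-* and WT libraries. *hoxb3a*, at 66.7 and 106 CPM in replicates 2 against 94.3 and 166 CPM in replicates 1, changed by -0.58 on the log2 scale (SE 0.133, with an edgeR adjusted p of 0.0101). On the same scale *hoxd3a* changed by -0.75 (SE 0.206, edgeR adjusted p of 0.0233) and *hoxb1b* by 0.56 (SE 0.162, edgeR adjusted p of 0.0303). The direction was the same in both genotypes for these 5 genes, and also for the members that were not called. For *hoxb2a*, though, the WT libraries hardly differed (log2 ratio -0.04, against -1.04 in *prdm1a-/-*). The share of all genes tested with the same direction in both genotypes was not computed, so nothing is read from this.

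The remaining genes did not pass. The log2 fold change of replicates 2 over 1 was 0.33 (SE 0.243) for *hoxa1a*, 0.75 (SE 0.504) for *hoxb1a*, 0.28 (SE 0.140) for *hoxc3a* and -0.52 (SE 0.255) for *hoxb2a*. All 4 group 1 genes had positive values, from 0.33 to 0.78, and *hoxa2b* and *hoxb2a* of group 2 had negative ones, while group 3 was mixed. With the replicate number as the only term edgeR called 0 of the 9, with adjusted p-values of 0.0632 or more, and DESeq2 with both terms called 3 (*hoxc1a*, *hoxa2b* and *hoxb3a*), along with 3640 of all genes. With 1 library left out, the fit held the replicate number alone and set both genotypes of 1 number against 1 genotype of the other. Its values therefore mix the genotype difference with the replicate difference. Without WT replicate 1 the log2 fold change of *hoxb3a* was -0.13, and without WT replicate 2 that of *hoxb1a* was 0.015.

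**Figure D4:**
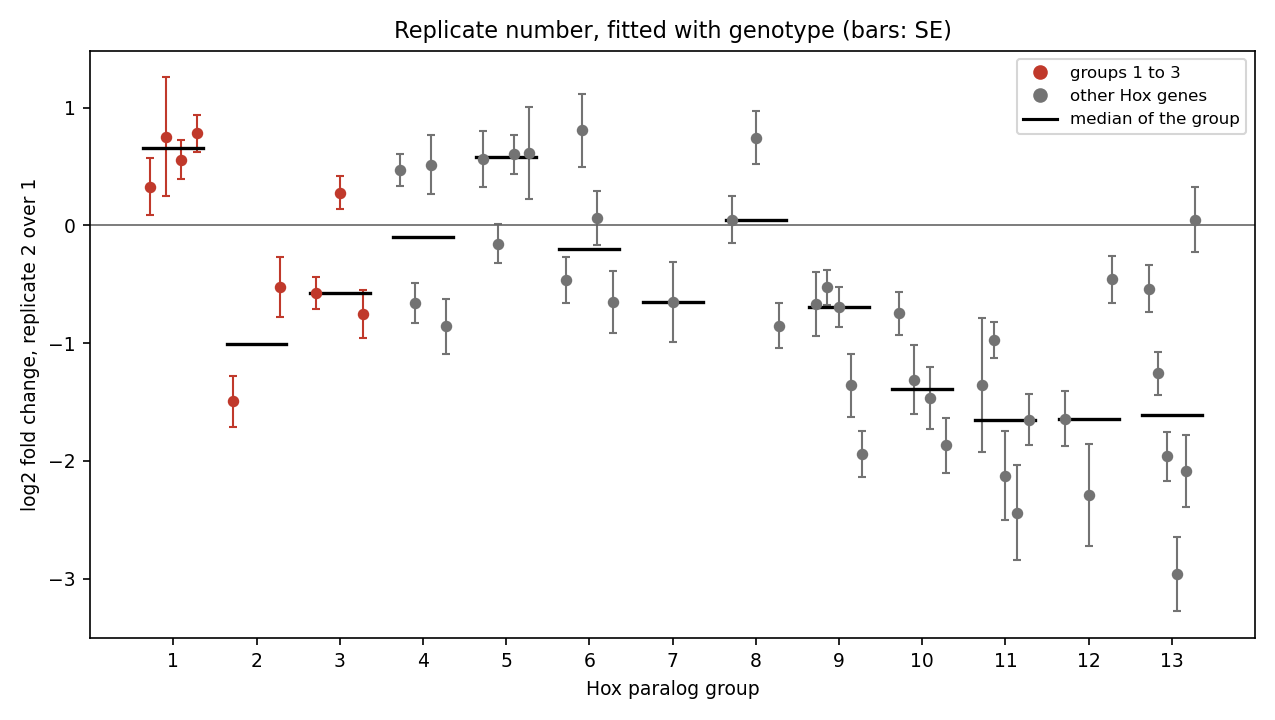
Log2 fold change of replicates 2 over replicates 1 (vertical axis, fitted by edgeR with genotype in the model) of the 48 Hox genes by paralog group (horizontal axis), with bars of 1 SE and a black line at the median of each group. The 4 red points of group 1 lie above 0 and those of group 2 below it, and from group 9 onward 22 of the 23 grey points lie below 0.

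Markers of several tissues, fin mesenchyme among them, also differed between replicate numbers. Of all genes tested, 14.1% were called higher and 10.6% lower in replicates 2. Of 8 fin mesenchyme markers, 1 was higher and 2 were lower in replicates 2. Of 5 epidermal markers, 2 were higher and 2 lower, and of 3 midbrain markers 0 were called. Of 7 hindbrain markers tested, 3 were higher and 1 lower in replicates 2, and the summed level of the 8 listed was 307 and 292 CPM in *prdm1a-/-* and WT replicates 2 against 191 and 194 CPM in replicates 1. *egr2b*, which marks some of the hindbrain rhombomeres, had 7.67 and 9.21 CPM in replicates 2 against 0.490 and 0.524 CPM in replicates 1. Its paralog *egr2a* had 95.7 and 66.8 CPM against 5.93 and 4.28 CPM, which is most of the difference in the sum. *epha4a*, the most abundant of the list, had 108 and 124 CPM in replicates 2 against 107 and 118 CPM in replicates 1, and *fgf3* was the marker that was lower. The hindbrain marker *wnt8b* was near 0 throughout and at 0 counts in *prdm1a-/-* replicate 2. Of 8 pharyngeal arch markers, 6 were lower in replicates 2, with summed levels of 96.1 and 207 CPM against 198 and 334 CPM. Of 10 markers of neurons and the neural tube, 1 was higher and 4 were lower in replicates 2, and of 5 skeletal muscle markers all 5 were lower, with a median log2 fold change of -1.96. Of 5 neural crest markers, 2 were lower in replicates 2, and of the Hox genes of groups 9 to 13, 18 of 23 were lower and 0 higher. The part of these tissues in the replicate difference of the 9 Hox genes was not tested.

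Some markers were also called lower in *prdm1a-/-* under the block, as were 0.62% of all genes tested. The marker lists were chosen with earlier results of these data known, so nothing is read from how many were called. Of 8 pharyngeal arch markers, 4 were lower in *prdm1a-/-* libraries, namely *gsc* (log2 fold change -1.46), *dlx2a* (-1.28), *hand2* (-1.12) and *barx1* (-0.83). *hand2*, *dlx2a* and *dlx5a* are expressed in the developing fin too, so this list does not mark the arches alone. The summed level of all 8 arch markers was 198 and 96.1 CPM in *prdm1a-/-* replicates 1 and 2 against 334 and 207 CPM in WT replicates 1 and 2. Of 5 neural crest markers *sox10* was lower (-0.96). Of 10 markers of neurons and the neural tube, *elavl3*, which marks newly formed neurons, was called lower (-0.81). That list went both ways, with a median of 0.17, 4 markers lower and 2 higher in both numbers, and *pax6a* at 1.29 without a call. Neural crest markers summed to 122 and 60.1 CPM in *prdm1a-/-* libraries and 180 and 87.5 CPM in WT libraries. Of 7 hindbrain markers 0 were called, with values from -1.41 for *vgll3* to 0.50 for *egr2a*. Of 8 fin mesenchyme markers *shox* was called lower (-1.15). The fin list also went both ways, with a median of -0.22 and a highest value of 0.27 for *fgf10a*. In both numbers 3 fin markers were lower and 2 higher. Of 3 midbrain, 5 skeletal muscle, 5 epidermal and 3 endothelial markers 0 were called, and of 4 blood markers the globin gene *hbae3* was lower (-0.99). Without the block edgeR called 0 of all genes tested, so its 0 calls on every list say nothing about the lists. The part of these tissues in the lower Hox values was not tested.

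Genes that act with or upstream of Hox proteins were set beside them. Of 14 genes for Pbx, Meis and Pknox cofactors, 13 were lower in the *prdm1a-/-* library of both replicate numbers, against 29.7% of all genes tested. Under the block 3 were called lower, against 0.62% of all genes. The list was chosen with earlier results known, so nothing is read from these counts. The called genes were *pbx1b* (log2 fold change -1.18), *meis3* (-0.77) and 1 of the 2 identifiers of *meis2a* (-0.85), while the list median was -0.25. Of the most abundant members, *pbx4* had 190 and 226 CPM in *prdm1a-/-* and 231 and 255 CPM in WT libraries, and *meis1b* 190 and 167 CPM against 216 and 205 CPM. Of 15 genes for the synthesis, breakdown and reception of retinoic acid, 5 were lower and 3 higher in both numbers, 0 were called and the median was -0.06. *aldh1a2*, the main enzyme of retinoic acid synthesis in the trunk, had 118 and 208 CPM in *prdm1a-/-* replicates 1 and 2 and 98.1 and 206 CPM in WT replicates 1 and 2, so the 2 numbers differed more than the genotypes did. In the replicate test 6 of the 15 were higher and 2 lower in replicates 2, and *cyp26c1*, a retinoic acid degrading enzyme, was lower (log2 fold change -2.40).

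A median profile of the 9 genes over the 4 libraries was taken from their log2(CPM + 0.5), centred on each gene's mean. It was -0.25 and -0.28 in *prdm1a-/-* replicates 1 and 2 and 0.17 and 0.41 in WT replicates 1 and 2. *hoxa1a* and *hoxc3a* lay nearest to it, at root mean square differences of 0.137 and 0.160, and *hoxa2b* furthest, at 0.796. The 5 other genes nearest to it were *get1* (0.0204), a receptor for tail-anchored membrane proteins, *ciao2a* (0.0268), a factor of iron-sulfur protein assembly, *nfasca* (0.0297), a neurofascin, *phf19* (0.0314), a Polycomb-associated protein, and *stard8* (0.0339). None of the 100 nearest genes outside the 9 was a Hox gene. With 4 libraries this likeness is a description only.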

How the data were processed

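The authors trimmed paired reads, aligned them to danRer11 with STAR 2.7.10b and deposited whole-number counts per gene from featureCounts, without normalization, for 2 *prdm1a-/-* and 2 WT RNA-seq libraries. Neither the labels nor the methods name the gene models or the strand setting. The same table holds the authors' own log2 values, fold changes and p-values, which were not used. The 6 CUT&RUN samples were not analysed here.

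Counts of 20007 genes passing filterByExpr (minimum count 10, minimum total 15) were scaled by TMM and tested with edgeR 4.0.16 (quasi-likelihood, two-sided, Benjamini-Hochberg over all genes; R 4.3.3), with genotype as the only term, and for the replicate numbers with both terms. SE is the log2 fold change divided by the square root of F. DESeq2 1.42.0, limma-voom (limma 3.58.1), RLE size factors, other filters, the replicate block and leaving out each library were alternatives.

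The labels do not say what a replicate number marks. Fold changes of the 9 genes are given with and without the replicate block, because the genes were compared within replicate number, and those of other named genes between genotypes with the block. The 9 genes and all gene lists (cofactors, retinoic acid, and markers of fin mesenchyme, hindbrain, neurons and neural tube, midbrain, neural crest, pharyngeal arch, skeletal muscle, epidermis, endothelium and blood) were chosen with earlier results of these data known. Named were all 9 genes, the 5 genes with the nearest profile, the called and the most abundant list genes, *prdm1a*, and, chosen after their values were seen, single Hox and marker genes that a sentence singles out. Of the listed symbols, *meis2b* and *nkx3.2* matched no row and were not analysed here.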

Additional observations from a re-analysis of the deposited data

How the results depend on the processing

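With genotype as the only term, every alternative other than leaving out a library kept the 9 Hox genes lower in *prdm1a-/-*, and scaling by library totals or RLE size factors left 9 of 9 lower in both replicate numbers. Genes called, out of the 9 and of all tested, were 0 and 0 in edgeR with genotype alone, 0 and 50 in DESeq2, 1 and 203 in edgeR with the replicate block, 1 and 243 in DESeq2 with the block, 3 and 434 in limma-voom with the block, 0 and 128 with RLE size factors and the block, and 1 and 300 with 10 counts in every library and the block. With the block, the adjusted p of *hoxb3a* ran from 0.00794 to 0.0612. Leaving out each library, with genotype alone, called 0 genes and gave log2 fold changes from -0.48 to 0.18 for *hoxb1b* (above 0 without *prdm1a-/-* replicate 1 or WT replicate 2), -0.84 to 0.16 for *hoxd3a* (above 0 without *prdm1a-/-* replicate 2 or WT replicate 1) and -1.87 to 0.00063 for *hoxa2b* (above 0 without WT replicate 1). By construction, 3 libraries set both numbers of a genotype against 1 number of the other. Same-numbered libraries deviated together from their genotype means (r = 0.77 over tested genes, which are no replicates of each other). Their count labels share the prefix T1 or T2 across genotypes. What the prefix marks is not stated, and with 2 numbers the pairing is not established.

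For replicates 2 over 1, 5 of the 9 and 4939 of all genes were called, against 0 and 2886 with the replicate number as the only term and 3 and 3640 in DESeq2. Leaving out each library called 0 to 4 of the 9 and 1542 to 3067 of all genes, with log2 fold changes from -0.018 to 0.71 for *hoxa1a* (below 0 without WT replicate 2) and -1.28 to 0.17 for *hoxb2a* (above 0 without *prdm1a-/-* replicate 2). Without WT replicate 1, *hoxb3a* was at -0.13, and without WT replicate 2, *hoxb1a* was at 0.015. Depth limits *hoxb1a* most, at 29 to 102 counts a library.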
